A study of Mus musculus with 9 samples.

Results

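Microglia are the resident macrophages of the brain, and 10 genes that are used to recognise them were followed across 3 regions of the mouse forebrain. The genes were Tmem119, P2ry12, Cx3cr1, Csf1r, Ctss, Aif1, Tyrobp, C1qa, C1qb and C1qc. They were found by gene symbol in the annotation of the Affymetrix Mouse430_2 array, where 15 of 45037 probe sets carried 1 of these symbols. The annotation gave 3 probe sets to Csf1r, 3 to C1qb, 2 to Cx3cr1 and 1 to each of the other 7 genes. A filter on low signal kept 13 of the 15 probe sets, so that 9 of the 10 genes were among the 14208 genes tested. Aif1 did not pass the filter and is described by its values alone.

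The tissue was punched from 3 regions of mice for which the labels name no treatment beyond anaesthesia. The BNST (bed nucleus of the stria terminalis) belongs to the extended amygdala. The NAc (nucleus accumbens) and the dStr (dorsal striatum) are the ventral and dorsal divisions of the striatum. There were 3 arrays per region, which the labels call biological replicates without saying that each came from its own animal, and no strain, age, sex or pooling is given for any region. The p-values therefore measure the spread between these samples. All 3 regions shared the same preparation, in which mice under brief isoflurane were decapitated, 300 µm vibratome slices were semi-frozen and punched, and 10 ng of total RNA was amplified and labelled over 2 cycles.

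Microglia settle in the brain before birth and survive there through the receptor Csf1r, whose ligands are Csf1 and Il34. They sense their surroundings through receptors such as P2ry12, which responds to nucleotides, and Cx3cr1, which binds the neuronal chemokine Cx3cl1. They degrade what they take up in lysosomes that hold proteases such as cathepsin S (Ctss), and they pass signals from receptors that lack their own signalling tail through the adaptor Tyrobp. In the brain they are the main source of C1q, the recognition molecule of the classical complement pathway, which is assembled from the chains encoded by C1qa, C1qb and C1qc.

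Values are linear probe-set intensities as the authors deposited them. The array medians lay between 93.9 and 102, and between 2270 and 2698 probe sets per array stood at the lowest value, 14.97, which was the same on every array. Over all tested genes the 3 dStr arrays correlated with one another at 0.97 to 0.98. BNST 1 correlated more highly with NAc 3 (0.97) than with BNST 2 (0.93) or BNST 3 (0.95), and NAc 1 correlated with NAc 3 (0.91) no more highly than with BNST 2 or BNST 3 (both 0.92). Housekeeping genes (125 genes for ribosomal proteins and the respiratory chain) had their lowest mean log2 values on BNST 2 (9.89) and NAc 1 (10.0), and lay between 10.3 and 10.6 on the other 7 arrays. Results of the microglia genes that depend on these 3 arrays are given with and without them, as are those of most other genes named as passing.

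The promoters of 6 of the 10 genes were in the RefSeq promoter table used here. The windows of Ctss, C1qb and C1qc, which hold the letters searched for and whose levels were tested, are shown from 250 bases before to 30 bases after the start site on GRCm38.p6, 5' to 3'. Capitals mark the letters GAGGAA and GAGGAAGT, on either strand, the second of which contains the first. These letters resemble the sequence bound by PU.1, the macrophage transcription factor encoded by Spi1.
Ctss, chr3:95526536-95526815, plus strand: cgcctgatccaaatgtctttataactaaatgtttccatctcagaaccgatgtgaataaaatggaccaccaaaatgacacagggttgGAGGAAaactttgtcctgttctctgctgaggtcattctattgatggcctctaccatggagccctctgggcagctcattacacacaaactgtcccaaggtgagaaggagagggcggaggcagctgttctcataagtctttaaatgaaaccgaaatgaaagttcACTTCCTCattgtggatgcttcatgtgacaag
C1qb, chr4:136886171-136886450, minus strand: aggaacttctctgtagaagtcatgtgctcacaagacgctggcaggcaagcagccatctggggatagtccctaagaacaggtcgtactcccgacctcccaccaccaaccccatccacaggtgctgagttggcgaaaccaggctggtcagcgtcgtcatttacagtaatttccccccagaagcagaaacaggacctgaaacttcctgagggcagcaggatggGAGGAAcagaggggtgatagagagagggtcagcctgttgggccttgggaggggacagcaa
C1qc, chr4:136892885-136893164, minus strand: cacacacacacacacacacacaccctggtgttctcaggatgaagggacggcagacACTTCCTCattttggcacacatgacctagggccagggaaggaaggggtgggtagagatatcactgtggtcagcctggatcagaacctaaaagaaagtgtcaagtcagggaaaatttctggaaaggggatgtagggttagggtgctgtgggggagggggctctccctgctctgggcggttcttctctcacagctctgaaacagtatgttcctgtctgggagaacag
In the windows of 300 bases searched, which run to 50 bases after the start site, GAGGAA stood in 4 of the 6 genes (Ctss, C1qb, C1qc and Aif1), against 28.3% of all 32851 promoters. GAGGAAGT stood in 2 of the 6 (Ctss and C1qc), against 3.2% of all promoters. In Ctss the shorter form began 164 bases before the start site and the longer form, as ACTTCCTC, 2 bases before the start site, and in C1qc it began 195 bases before it. In C1qb the shorter form began 30 bases before the start site. The C1q genes C1qb, C1qc and C1qa follow one another on chromosome 4, with no other protein-coding gene between them in RefSeq. A match describes the letters of a window and is not evidence of binding.

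The first comparison asked whether the microglia genes differed between BNST and dStr. Of the 9 tested genes, 6 were lower in BNST (Tmem119, P2ry12, Csf1r, Ctss, Tyrobp and C1qb), against 9.33% of all genes lower in this comparison (limma, Benjamini-Hochberg adjusted p under 0.05). Cx3cr1, C1qa and C1qc were below dStr in their means but did not pass. At an unadjusted p under 0.05 all 9 differed, as did 29% of all genes. All 9 differences were below 0, as were 56.9% of those of all genes. For all 9 genes every BNST array lay below every dStr array, which held for 21.5% of all genes. The median difference of the 9 genes was -0.61 on the log2(value + 16) scale, on which all fold changes here are given, against a median of -0.06 over all genes. This scale understates the change of genes near the floor. In bulk tissue, fewer microglia and less of these RNAs per microglial cell cannot be told apart.

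**Figure D1:**
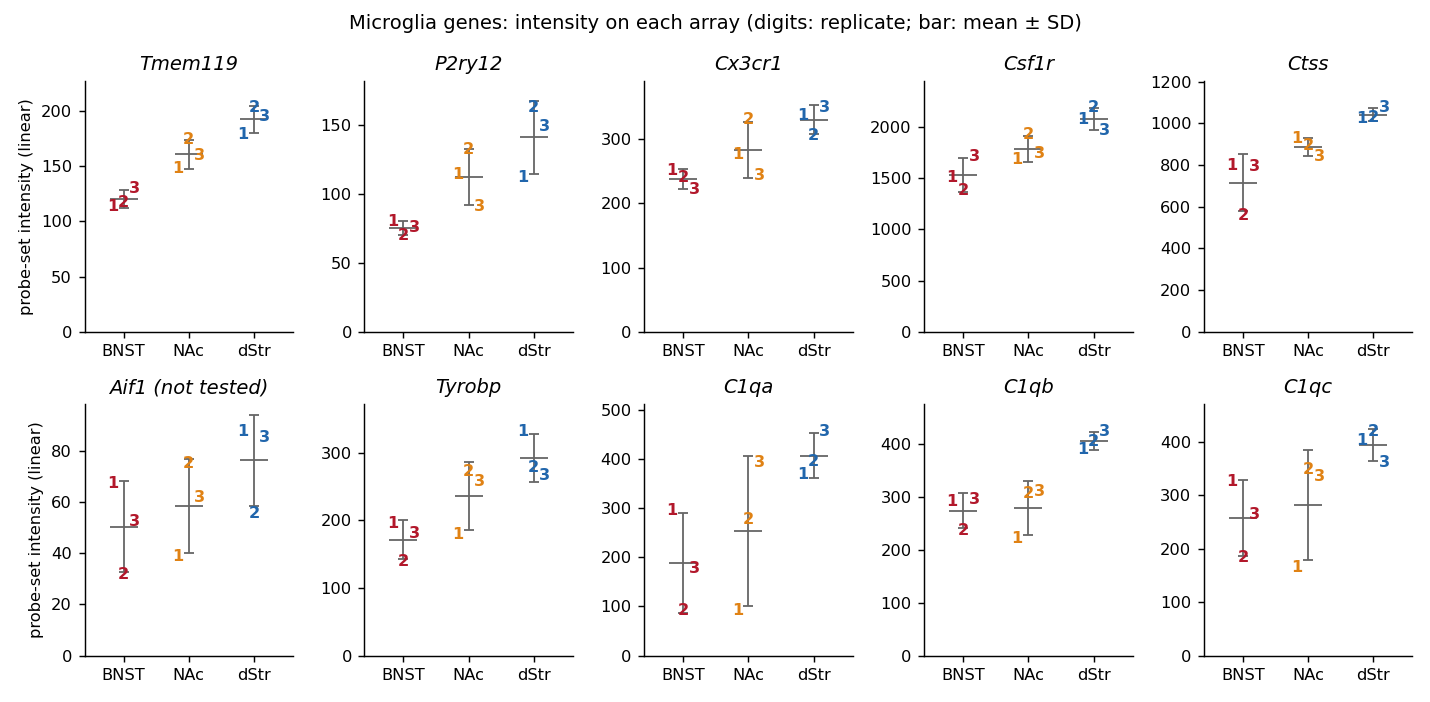
Linear probe-set intensity (vertical axes, starting at 0) of the 10 microglia genes in BNST, NAc and dStr. Digits are the replicate numbers of single arrays and bars are the mean ± SD of 3 arrays, and for each of the 9 tested genes the BNST digits all lie below the dStr digits.

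Among the surface genes, Tmem119, a membrane protein of resident microglia, read 113, 117 and 129 on the BNST arrays, 147, 174 and 159 on the NAc arrays and 179, 203 and 195 on the dStr arrays. The 3 regions did not overlap in either direction, with NAc in the middle. Its mean intensity was 119.9 ± 8.42 in BNST, 160.3 ± 13.6 in NAc and 192 ± 12.3 in dStr (SD, n = 3 each). The difference between BNST and dStr was -0.61 (SE 0.12, 1.53-fold lower, adjusted p = 0.00825 by limma). It passed with each array left out in turn, with adjusted p of 0.00639 to 0.0392.

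P2ry12, the purinergic receptor that guides microglial processes towards ATP and ADP, read 79.5, 69.5 and 75.3 in BNST, 114, 132 and 90.9 in NAc and 111, 162 and 149 in dStr. The BNST arrays lay close together and below all others, whereas NAc and dStr overlapped. P2ry12 was 1.71-fold lower in BNST than in dStr (log2 difference -0.78, SE 0.17, adjusted p = 0.0115 by limma). It did not pass without BNST 2 (adjusted p = 0.05 after rounding) or dStr 3 (0.0536). Tmem119 and P2ry12 were the 2 microglia genes that also passed the F test over the 3 regions (adjusted p = 0.024 and 0.0328), which 10.3% of all genes passed.

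Cx3cr1, the fractalkine receptor, read 252, 239.8 and 222 in BNST, 276, 329.6 and 243 in NAc and 336, 305 and 349 in dStr. The lowest NAc array lay within the BNST range and the highest within the dStr range, and BNST and dStr did not overlap. The difference between BNST and dStr was -0.45 (SE 0.14) and did not pass (adjusted p = 0.0593 by limma). It passed without NAc 2 (adjusted p = 0.0499) or NAc 3 (0.0472), and reached 0.199 without BNST 3. The other Cx3cr1 probe set was too dim to be kept, at 43.6 to 68.5 over the 9 arrays.

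Cx3cl1, the neuronal ligand of Cx3cr1, differed more. Its brightest probe set read 927, 482 and 608 in BNST, 1140.4, 1520.2 and 1337 in NAc and 1645, 1429.6 and 1843 in dStr. Every BNST array was below every NAc and dStr array. Cx3cl1 was 2.48-fold lower in BNST than in dStr (log2 difference -1.31, SE 0.22, adjusted p = 0.00343 by limma), and it passed with each array left out. It was also 2.02-fold lower in BNST than in NAc (adjusted p = 0.0465), a call that was lost without any of 7 arrays (all but BNST 1 and NAc 1), with adjusted p up to 0.195. The 2 dimmer kept probe sets of Cx3cl1 overlapped between the regions, and with the mean of its probe sets the difference was -0.54 from dStr (adjusted p = 0.0293) and -0.41 from NAc (adjusted p = 0.21).

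Csf1r, the receptor tyrosine kinase on which microglial survival depends, read 1502, 1378 and 1709.9 in BNST, 1683, 1925 and 1744 in NAc and 2073, 2188 and 1968 in dStr on its brightest probe set. All dStr arrays lay above all others, and BNST 3 lay within the NAc range. The difference between BNST and dStr was -0.44 (SE 0.13, 1.36-fold lower, adjusted p = 0.0473 by limma). This call was kept only without NAc 1 (adjusted p = 0.041) among the fits that left out 1 array, and its adjusted p was between 0.0553 and 0.17 without any of the other 8, the highest without BNST 2.

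The 3 Csf1r probe sets did not go together. The second, 1419873_s_at, read 396, 310.2 and 414 in BNST, 541, 473 and 485 in NAc and 539, 503 and 591 in dStr, and was lower in BNST than in dStr (log2 difference -0.53, SE 0.14, adjusted p = 0.036 over all probe sets), as were 9.31% of all kept probe sets. Adjusted over all probe sets, the brightest one, 1419872_at, just missed the threshold (adjusted p = 0.0502 by limma). The third, 1423593_a_at, which alone of the 3 carries a sequence accession in the annotation, read 287, 362 and 394 in BNST, 345, 338 and 317 in NAc and 316, 332 and 336 in dStr. Its BNST arrays spanned the range of the other regions, and its difference was 0.07 (SE 0.14, adjusted p = 0.789). With the mean of the 3 probe sets Csf1r did not pass (adjusted p = 0.0945). Of the Csf1r ligands, Il34 differed by -0.52 (SE 0.17, adjusted p = 0.0721) and Csf1 by 0.02 (adjusted p = 0.957) between BNST and dStr.

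**Figure D2:**
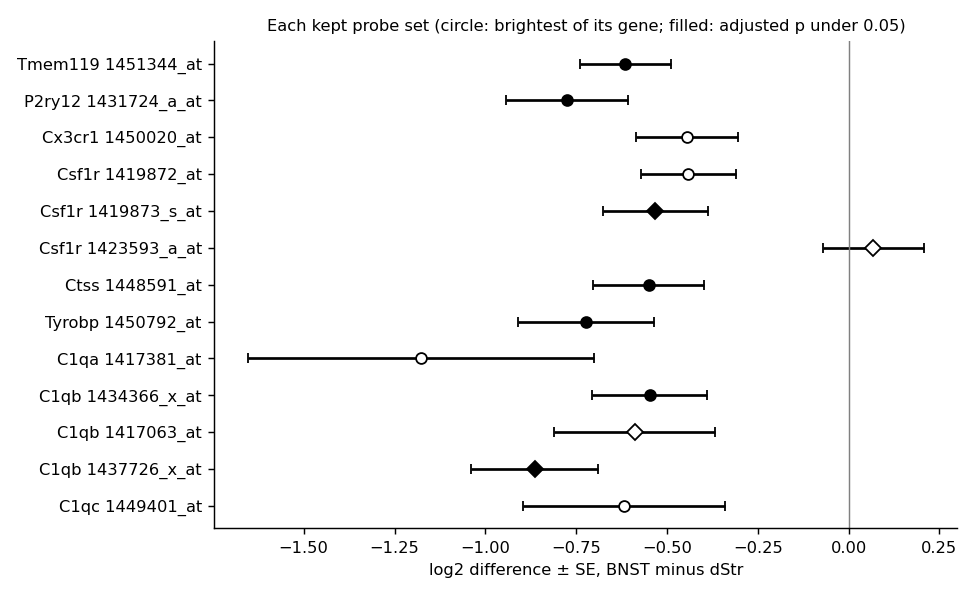
Log2 difference between BNST and dStr (horizontal axis, ± SE of the limma fit) for each of the 13 kept probe sets of the microglia genes. Filled symbols passed an adjusted p of 0.05 over all probe sets and circles are the brightest of a gene. The Csf1r probe set 1423593_a_at lies at 0.07 while the other 12 lie below 0.

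Ctss, the lysosomal cysteine protease cathepsin S, read 798, 558 and 792 in BNST, 927, 896 and 841 in NAc and 1024, 1028 and 1076 in dStr. The 3 regions did not overlap, and BNST 2 lay furthest below the others. Ctss was 1.46-fold lower in BNST than in dStr (log2 difference -0.55, SE 0.15, adjusted p = 0.037 by limma). The call was lost without BNST 2 (adjusted p = 0.122), BNST 3 (0.0592), NAc 2 (0.0541), dStr 1 (0.1), dStr 2 (0.0853) or dStr 3 (0.12). Aif1, which encodes the calcium-binding protein Iba1 used to stain microglia, was dim, with 67.3, 31.9 and 52.4 in BNST, 38.8, 75.0 and 62.0 in NAc and 87.8, 55.8 and 85.5 in dStr. The 3 regions overlapped for Aif1, and its difference in a fit with no filter was -0.49 (SE 0.26, adjusted p = 0.27).

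Tyrobp, the adaptor also known as DAP12, read 195, 139 and 179.7 in BNST, 178, 272 and 257 in NAc and 332, 278 and 266 in dStr. NAc 1 lay within the BNST range and NAc 2 within the dStr range, and BNST and dStr did not overlap. Tyrobp was 1.65-fold lower in BNST than in dStr (log2 difference -0.72, SE 0.19, adjusted p = 0.0261 by limma). The call was lost without BNST 2 (adjusted p = 0.107), BNST 3 (0.0715), dStr 1 (0.11), dStr 2 (0.0617) or dStr 3 (0.058). Among the 9 tested genes, Tyrobp followed the mean of the other 8 most closely over the 9 arrays (r = 0.94) and Cx3cr1 least (r = 0.74), as a description of arrays that share region and amplification. Trem2, the lipid-sensing receptor that signals through Tyrobp, did not pass the filter and read 54.3, 51.2 and 41.0 in BNST, 61.3, 45.5 and 40.2 in NAc and 69.7, 67.6 and 60.1 in dStr.

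Of the 9 tested genes, C1qa and C1qc varied most between the replicates of BNST and of NAc. C1qa read 294, 91.8 and 177 in BNST, 90.9, 278 and 393 in NAc and 368, 395 and 456 in dStr. The highest array was 3.21 times the lowest in BNST, 4.32 times in NAc and 1.24 times in dStr. The BNST and dStr arrays did not overlap, but the difference of -1.18 (SE 0.47) did not pass (adjusted p = 0.128 by limma). It passed without BNST 1 (adjusted p = 0.0479) or NAc 1 (0.0262), and its adjusted p was 0.384 without BNST 2.

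C1qb, on its brightest probe set, read 290.4, 236 and 294 in BNST, 221, 306 and 309 in NAc and 389, 404 and 423 in dStr. BNST and NAc overlapped and both lay below all dStr arrays. C1qb was 1.46-fold lower in BNST than in dStr (log2 difference -0.55, SE 0.16, adjusted p = 0.0423 by limma). The call was lost without BNST 2 (adjusted p = 0.157), BNST 3 (0.0883), NAc 2 (0.0519), dStr 1 (0.1), dStr 2 (0.099) or dStr 3 (0.134). A second C1qb probe set, 1437726_x_at, was lower in BNST (log2 difference -0.86, SE 0.18, adjusted p = 0.01 by limma over all probe sets). The third, 1417063_at, alone of the 3 carries a sequence accession in the annotation. It differed by -0.59 and did not pass (SE 0.22, adjusted p = 0.111 by limma). On it BNST and dStr overlapped, with BNST 3 (106.7) above dStr 1 (102.6).

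C1qc read 325, 183 and 264 in BNST, 164, 348 and 335 in NAc and 403, 420.0 and 361 in dStr. NAc 1 was the lowest array and every dStr array was above all others. The difference between BNST and dStr was -0.62 (SE 0.28, adjusted p = 0.168 by limma), which passed without NAc 1 (adjusted p = 0.0422) and had an adjusted p of 0.461 without BNST 2.

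The C1q genes and the surface genes differed in how they varied over the arrays, with the widest gap on NAc 1. Centred on each gene's mean, the 3 C1q genes averaged -0.78 on BNST 2 and -0.86 on NAc 1, and 0.08 and -0.23 on BNST 1 and BNST 3. Tmem119, P2ry12, Cx3cr1, Csf1r and Ctss averaged -0.41 on BNST 2 but 0.01 on NAc 1, against 0.16 and -0.08 on NAc 2 and NAc 3. On BNST 1 and NAc 3 the gap ran the other way, the C1q genes being above the surface genes and Ctss by 0.34 on each. The ribosomal and respiratory chain genes were also lowest on BNST 2 and NAc 1, at -0.44 and -0.32. Over the 9 arrays their mean correlated with that of the C1q genes at 0.87, and at 0.955 within regions. For the surface genes and Ctss these values were 0.437 and 0.303. The part of the ribosomal and respiratory chain genes in the C1q values was not tested. With their mean as a covariate in limma the C1qa difference was -0.62 (adjusted p = 0.0337) and the C1qc difference -0.34 (adjusted p = 0.222). Without BNST 2 and NAc 1 together, C1qa differed by -0.78 (adjusted p = 0.0544) and C1qc by -0.41 (adjusted p = 0.119).

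**Figure D3:**
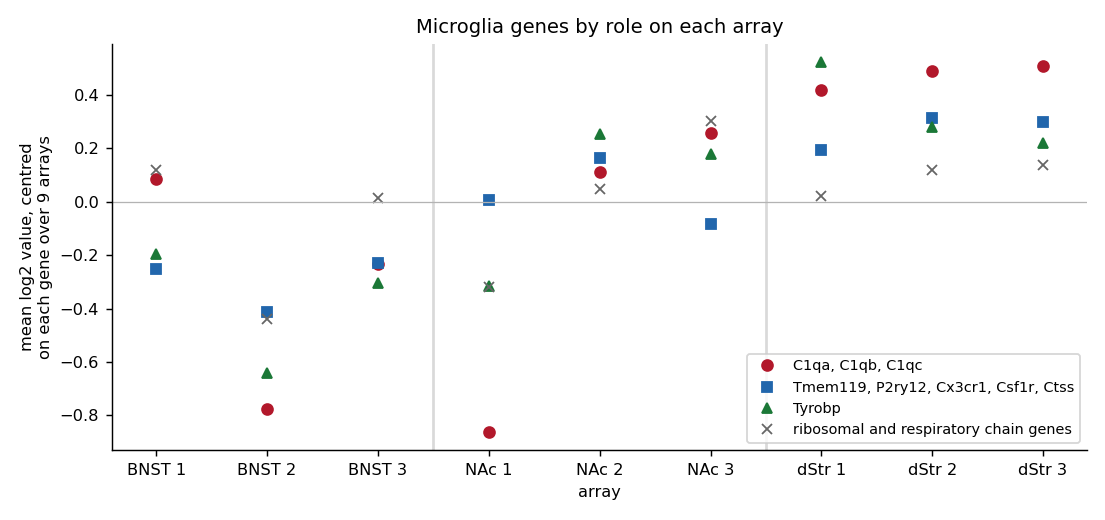
Mean log2(value + 16) of the microglia genes by role, centred on each gene over 9 arrays (vertical axis), on each array (horizontal axis). Points are means over the genes named in the legend, and crosses are 125 ribosomal protein and respiratory chain genes. The C1q genes lie at -0.78 on BNST 2 and -0.86 on NAc 1, where the surface genes and Ctss lie at -0.41 and 0.01.

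The second comparison set NAc against dStr, the ventral against the dorsal part of the striatum. None of the 9 tested microglia genes passed (limma, 0 of 9), against 1.1% of all genes lower in NAc and 2.05% differing in either direction. At an unadjusted limma p under 0.05, 1 of the 9 differed, C1qb (log2 difference -0.53, adjusted p = 0.146), against 13.1% of all genes. All 9 differences were below 0, with a median of -0.29, against 52.7% of all genes below 0 and a median of -0.01. Every NAc array lay below every dStr array for 5 genes (Tmem119, Csf1r, Ctss, C1qb and C1qc), which held for 10% of all genes. The largest difference was that of C1qa, -0.85 (SE 0.47, adjusted p = 0.502), and the smallest that of Csf1r, -0.22 (adjusted p = 0.54).

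The third comparison set BNST against NAc. None of the 9 genes passed (limma, 0 of 9), against 1.48% of all genes lower in BNST, 0.76% higher and 2.24% in either direction. At an unadjusted p under 0.05, 3 of the 9 differed, against 12.6% of all genes, namely Tmem119 (-0.37, adjusted p = 0.188), P2ry12 (-0.49, adjusted p = 0.212) and Tyrobp (-0.42, adjusted p = 0.384). The BNST arrays of Tmem119, P2ry12 and Ctss lay below all NAc arrays, which held for 8.85% of all genes. All 9 differences were below 0, with a median of -0.32, against 59.4% of all genes below 0 and a median of -0.05. The C1q genes C1qb (-0.01, adjusted p = 0.985) and C1qc (-0.09, adjusted p = 0.952) had the smallest differences. Without BNST 1 and NAc 1 together, Tyrobp (adjusted p = 0.0226), C1qa (0.0101) and C1qc (0.0491) passed in this comparison, and all 9 genes passed between BNST and dStr. The share of all genes lower in BNST was also larger without these arrays, at 13% against NAc and 20.6% against dStr.

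**Figure D4:**
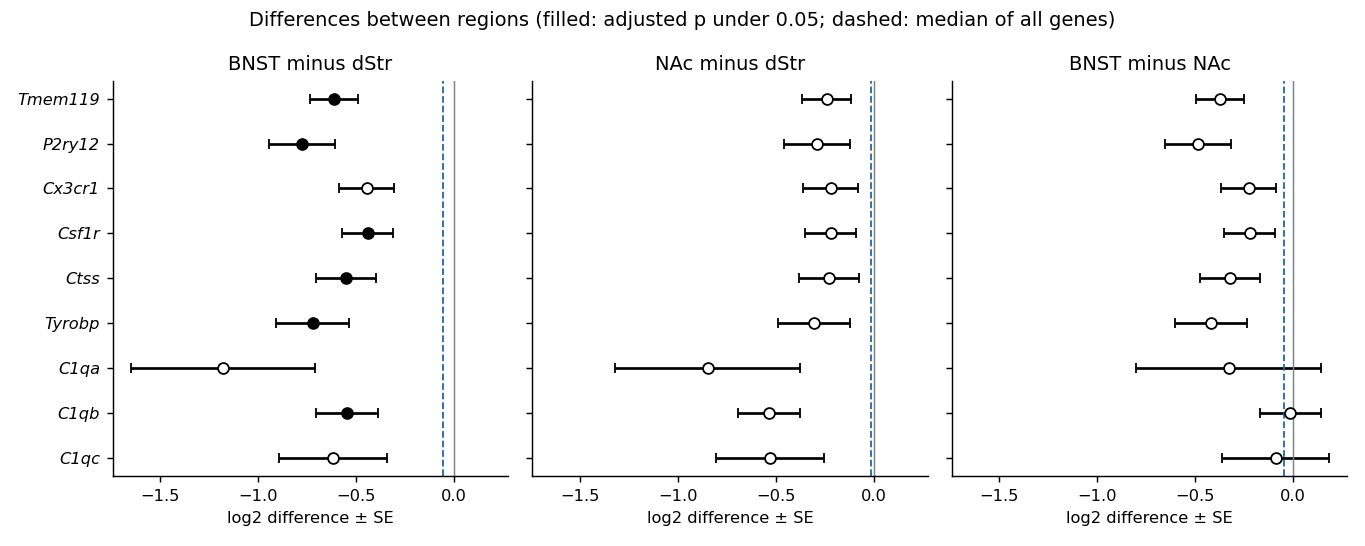
Log2 differences (horizontal axes, ± SE of the limma fit) of the 9 tested microglia genes in the 3 comparisons. Filled circles passed an adjusted p of 0.05 over all genes and the dashed line is the median of all genes. The 6 filled circles are all between BNST and dStr, where all 9 genes lie at -0.44 or lower.

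Across the 3 regions, all 9 tested genes had the order BNST below NAc below dStr in their means, an order shared by 34.4% of all genes (4887 of 14208). Neighbouring regions in that order did not differ beyond the threshold for any of the 9. The highest of the 9 arrays was always from dStr. The lowest was BNST 2 for 4 genes, NAc 1 for 3, BNST 1 for 1 and BNST 3 for 1. The comparisons share arrays, so their values are given side by side and not as independent evidence.

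The count of 6 genes between BNST and dStr depended on single arrays. It was 1 without BNST 2 or without dStr 3, 2 without BNST 3, dStr 1 or dStr 2, 4 without NAc 2, 6 without BNST 1 or NAc 3 and 8 without NAc 1. In the same fits the share of all genes lower in BNST lay between 5.01% (without BNST 2) and 13.5% (without BNST 1). Tmem119 was called in each of these 9 fits. After quantile normalisation or median centring of the arrays, Csf1r, Ctss and C1qb missed the threshold (adjusted p = 0.0508 to 0.0898). No difference of a tested gene between BNST and dStr was above 0 in any of them.

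**Figure D5:**
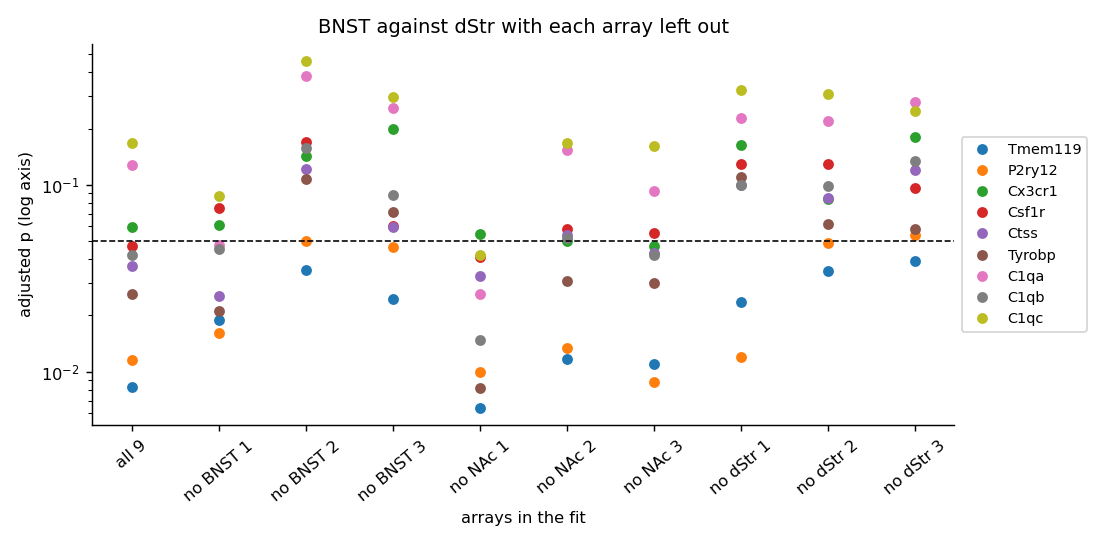
Adjusted p between BNST and dStr (vertical axis, log scale) for the 9 tested microglia genes, with all 9 arrays and with each array left out (horizontal axis). Points are genes and the dashed line is 0.05. The points of Tmem119 stay between 0.00639 and 0.0392 with 1 array left out, and C1qa reaches 0.384 without BNST 2.

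Of 33 tested genes for other receptors and surface proteins of microglia (41 listed), 6 were lower in BNST than in dStr and 2 higher, against 9.33% of all genes lower and 4.94% higher. The lower genes were Fcgr3, Ly86, P2rx4, Fcgr2b, Cd48 and Fcgr1. The median difference was -0.28 and 26 of the 33 differences were below 0, against a median of -0.06 and 56.9% below 0 over all genes. Fcgr3, a low-affinity receptor for IgG, read 125, 78.7 and 98.0 in BNST, 92.1, 174 and 119.6 in NAc and 226, 211 and 212 in dStr. It was 2.02-fold lower in BNST than in dStr (log2 difference -1.01, SE 0.21, adjusted p = 0.00964 by limma) and passed with each array left out.

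Of the others, Ly86, the partner of the receptor Cd180, was 1.85-fold lower (adjusted p = 0.0197), the ATP-gated channel P2rx4 1.57-fold lower (adjusted p = 0.01) and the inhibitory IgG receptor Fcgr2b 1.52-fold lower (adjusted p = 0.013). The higher genes were Cd33, a sialic acid receptor (1.9-fold, adjusted p = 0.0398), and Csf3r, the G-CSF receptor (1.4-fold, adjusted p = 0.0192). Cd48, a surface protein of leukocytes, and Fcgr1, the high-affinity IgG receptor, were 1.5-fold (adjusted p = 0.0482) and 1.38-fold lower (adjusted p = 0.0362). These 2 genes were not followed singly with arrays left out. The count of 8 genes was 2 without BNST 2, BNST 3 or dStr 3, 3 without dStr 1, 4 without dStr 2 and 5 without NAc 2, and 12 without BNST 1 and NAc 1 together. With the mean of their probe sets, P2rx4 differed by 0.01 (adjusted p = 0.961) and Fcgr2b by -0.11 (adjusted p = 0.55), so that neither call held, and Fcgr2b also missed after quantile normalisation (adjusted p = 0.0915). With single arrays left out, Ly86 missed the threshold without BNST 2, BNST 3 or any dStr array (adjusted p = 0.0542 to 0.0835) and Fcgr2b without BNST 2, BNST 3, dStr 2 or dStr 3 (0.0504 to 0.0589). P2rx4 missed it without dStr 3 (adjusted p = 0.0529), Csf3r without BNST 2, BNST 3, dStr 1 or dStr 2 (0.0528 to 0.0814) and Cd33 without BNST 2, BNST 3, NAc 2, NAc 3, dStr 1 or dStr 3 (0.0501 to 0.156).

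The other 6 lists of microglial genes had medians between -0.11 and 0.10. Between BNST and dStr, 5.26% to 30% of the tested genes of each list passed in either direction, against 14.3% of all genes. Of all genes 9.33% were lower and 4.94% higher, and 29% had an unadjusted limma p under 0.05 in either direction. Of 20 lysosomal and secreted genes tested, 0 were lower in BNST than in dStr (limma, 2 at an unadjusted p under 0.05) and 3 were higher, with a median of 0.10 and counts of 1 to 5 with single arrays left out. These were Sparc, a matrix protein (4.69-fold, adjusted p = 0.00525), Apoe, a lipid carrier (1.71-fold, adjusted p = 0.0129), and Lgmn, a lysosomal protease (1.5-fold, adjusted p = 0.0182), of which Sparc and Apoe are also made by astrocytes. Sparc passed with each array left out, and its log2 difference was 1.25 with the mean of its probe sets, against 2.23 on the brightest. Apoe missed without BNST 2 (adjusted p = 0.0507), BNST 3 (0.0652), dStr 1 (0.0631) or dStr 3 (0.0524), and Lgmn without BNST 3 (0.0673), dStr 1 (0.0727) or dStr 3 (0.0677). Cst3, the cysteine protease inhibitor cystatin C, differed by 0.07 (adjusted p = 0.861).

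Of 12 transcription factor genes tested, 1 was lower in BNST than in dStr and 0 higher (limma, also 0 at an unadjusted p under 0.05), with a median of -0.11. It was Mef2a (2.02-fold, adjusted p = 0.0201), which neurons also express, and it missed without BNST 2 (adjusted p = 0.0843), BNST 3 (0.0807), dStr 1 (0.0582), dStr 2 (0.0573) or dStr 3 (0.0797). Spi1, which encodes PU.1, read 95.7, 103 and 110.1 in BNST, 106, 103 and 109 in NAc and 122, 112 and 129 in dStr. Its BNST arrays lay below its dStr arrays, with a difference of -0.20 that did not pass (adjusted p = 0.297). Irf8 differed by 0.05 (adjusted p = 0.844) on its brightest probe set and by -0.47 (adjusted p = 0.0591) with the mean of its probe sets, and Sall1, a factor of microglial identity, by -0.13 (adjusted p = 0.816).

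Of 10 ligand genes tested, 2 were lower in BNST than in dStr (Cx3cl1 and Cd47) and 1 higher (Tgfb2), with a median of 0.05 and counts of 2 to 5 with single arrays left out. Cd47, the signal on other cells that restrains phagocytosis, was 1.6-fold lower (adjusted p = 0.0318), a call lost without BNST 2 (adjusted p = 0.124), BNST 3 (0.122), dStr 1 (0.121), dStr 2 (0.0515) or dStr 3 (0.0988), or after quantile normalisation (0.0653). Tgfb2 was 1.86-fold higher on its brightest probe set (adjusted p = 0.00219), and did not pass with the mean of its probe sets (adjusted p = 0.0774). Tgfb1, which maintains the microglial state, differed by 0.12 (adjusted p = 0.65).

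The list of complement genes beyond C1q had 14 tested genes. They included C1ql1, C1ql2, C1ql3 and C1qbp, which are named after C1q and are not complement components. Of the 14, 0 were lower in BNST than in dStr (limma, 1 at an unadjusted p under 0.05, C1ql1) and 2 were higher, with a median of 0.10. The higher genes were Clu, the inhibitor clusterin (1.52-fold, adjusted p = 0.0176), and C1ql2, a C1q-like synaptic protein of neurons (2.37-fold, adjusted p = 0.0105). Clu missed without BNST 2 (adjusted p = 0.0611), BNST 3 (0.0875), dStr 1 (0.081) or dStr 3 (0.0613), and C1ql2 without dStr 1 (0.0535). C2, a protease of the classical pathway, differed by -0.20 (adjusted p = 0.338), and Itgb2, a subunit of complement receptor 3, by 0.12 (adjusted p = 0.674). Itgam, its partner subunit, did not pass the filter and read 42.0, 39.2 and 45.1 in BNST, 39.8, 35.7 and 34.5 in NAc and 16.2, 27.3 and 34.9 in dStr.

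Of 12 genes tested of Tyrobp signalling, 0 were lower in BNST than in dStr (limma, 2 at an unadjusted p under 0.05) and 1 higher (Cd33), with a median of -0.05. Of 19 genes of inflammation and disease-associated microglia, 1 was lower (Lpl) and 0 higher (limma, 2 at an unadjusted p under 0.05), with a median of 0.08. Lpl, lipoprotein lipase, which neurons also express, read 132, 52.9 and 138 in BNST, 1188, 546 and 267 in NAc and 697, 1028 and 763 in dStr. The BNST arrays lay below all others. With the mean of its probe sets the log2 difference from dStr was -1.85, against -2.84 on the brightest. Lpl was 7.17-fold lower in BNST than in dStr (adjusted p = 0.00286) and 4.96-fold lower than in NAc (adjusted p = 0.0329), the second of which was lost without BNST 2 (adjusted p = 0.128), BNST 3 (0.089), NAc 2 (0.124), dStr 1 (0.0654), dStr 2 (0.063) or dStr 3 (0.0635). In these 7 lists 0 genes passed between NAc and dStr (limma), against 2.05% of all genes. There 7 of the 33 receptor and surface genes and 0 to 2 genes of each other list had an unadjusted p under 0.05, against 13.1% of all genes. Without dStr 3, 1 gene of the complement list passed there, and without NAc 1, 1 ligand gene. With all arrays, Cx3cl1 and Lpl alone passed between BNST and NAc.

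Markers of other cells moved between the regions too. The summed intensity of the 10 microglia genes was 3044 to 3917 in BNST, 3841 to 4734 in NAc and 5302 to 5438 in dStr. Csf1r (mean 1530 in BNST and 2080 in dStr, on its brightest probe set) and Ctss (716 and 1040) weighed most in this linear sum. For 7 genes of border-associated macrophages, which express several of the same genes, the sums were 385 to 425 in BNST, 386 to 462 in NAc and 463 to 518 in dStr. Of these 7 genes 3 were tested and 0 passed between BNST and dStr (limma, also 0 at an unadjusted p under 0.05). Mrc1, the mannose receptor of these cells, differed by -0.34 (adjusted p = 0.345 by limma), Cbr2 by -0.08 (0.722) and Pf4 by 0.04 (0.898). Cd163, dim and not tested, stood at the floor on all 3 BNST arrays, against 17.7, 21.5 and 19.9 in NAc and 45.4, 32.0 and 42.1 in dStr. For 6 genes of blood leukocytes the sums overlapped between the regions, at 927 to 1001 in BNST, 886 to 989 in NAc and 929 to 1048 in dStr.

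The sums of 8 astrocyte genes were 12449 to 14454 in BNST, 9940.0 to 10495 in NAc and 8845 to 9422 in dStr, and Gfap, Gja1 and Mlc1 were higher in BNST than in dStr. The sums of 8 genes of endothelium and pericytes were 2122 to 2279 in BNST, 2012 to 2317 in NAc and 2804 to 3077 in dStr, with Rgs5 lower in BNST. The sums of 8 ependymal and choroid plexus genes were 1714 to 5012 in BNST, 567 to 676 in NAc and 530.0 to 632 in dStr, with Tmem212, Ccdc153 and Otx2 higher in BNST. The sums of 7 oligodendrocyte genes were 15147 to 17084 in BNST, 12739 to 17747 in NAc and 15300.0 to 17144 in dStr, and 0 of the 7 passed between BNST and dStr (limma, also 0 at an unadjusted p under 0.05).

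The sums of 8 general neuronal genes were 13255 to 15351 in BNST, 14913 to 18992 in NAc and 14735 to 16013 in dStr, with Snap25 and Rbfox3 lower and Stmn2 higher in BNST than in dStr. Snap25 passed without BNST 1 or NAc 1 and had an adjusted p of 0.0529 to 0.158 without any other single array, and Rbfox3 missed without BNST 2, dStr 2 or dStr 3 (0.099 to 0.122). For 7 genes of striatal projection neurons, a list added after the data were seen, the sums were 2768 to 5607 in BNST, 11328 to 15231 in NAc and 16787 to 18633 in dStr. All 7 were lower in BNST than in dStr, against 9.33% of all genes. No gene of these lists stood at the floor on all 9 arrays. The part of other cell types in the microglia gene values was not tested.

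Genes were ranked by their correlation, over the 9 arrays, with the mean profile of the 9 tested microglia genes. Only genes with a mean log2 value above the median of tested genes were ranked, so dimmer genes could not appear whatever their correlation. The 10 highest were Sh2d5, Dnpep, Cyb5r4, Cacnb1, Slc8a2, Phyhip, Pantr1, Ttll11, Exoc3 and 2310033P09Rik, with r from 0.987 down to 0.977. None of the 10 was on the lists of microglial genes or cell markers, whose dimmer members were not ranked. Sh2d5 averaged 327 in BNST, 547 in NAc and 1073 in dStr, and Slc8a2, a sodium and calcium exchanger of neurons, averaged 312 in BNST, 419 in NAc and 934 in dStr. These correlations describe 9 arrays that share their regions, amplification and scaling.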

How the data were processed

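Total RNA of 3 mouse brain regions was measured on 9 Affymetrix Mouse430_2 arrays. The authors deposited 1 table of linear intensity values per probe set, with a common lowest value of 14.97. How they were summarised and scaled is not given in the sources used here. The small RNA input was amplified over 2 cycles per the labels' protocols. Probe sets were named from the platform annotation, in which 34945 had 1 symbol, 932 several and 9160 none.

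Values were tested as log2(value + 16). The filter on low signal kept 29293 probe sets that exceeded an array's own 40th percentile on 3 or more arrays. Of several probe sets of a gene (5897 of 14208 genes), the one with the highest mean log2 value was used. One fit in limma 3.58.1 (R 4.3.3) covered all 9 arrays with a mean per region (6 residual degrees of freedom) and gave 2-sided moderated tests, adjusted by Benjamini-Hochberg over all genes, with a threshold of 0.05. The number of arrays limits the precision. The procedure was also run on simulated data, the outcome of which is not reported here.

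The members and lists were chosen with earlier results of these data known. All members were named, with up to 4 passing genes per list, comparison and direction, and direct partners of the members. The 10 genes of most similar profile were also named, among genes with a mean above the median of tested genes. Cd48, Fcgr1 and the marker genes beyond that were chosen after their values were seen. The alternatives included quantile normalisation, median centring, other filters and pseudocounts, other choices of probe set, a trend and robust prior, a replicate block, the arrays of a pair alone and left-out arrays. The housekeeping covariate and leaving out BNST 2 with NAc 1 were added after the data were seen. Promoter sequences are from RefSeq on GRCm38.p6, matched by symbol.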

Additional observations from a re-analysis of the deposited data

How the results depend on the processing

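Between BNST and dStr, the count of 6 microglia genes was 3 after quantile normalisation, 3 after median centring, 3 without BNST 2 and NAc 1 together, and 1 to 8 with each array left out. The share of all genes lower in BNST was 8.2%, 8.48% and 7.55% in the first 3 of these fits, against 9.33% in the main fit. With a block on replicate number the count was 2, and 6.9% of all genes were lower. The labels do not say whether a number marks a shared animal or day. Deviations of same-numbered arrays from their region means correlated between -0.51 and 0.26, which with 3 arrays per region cannot settle it. Between NAc and dStr the count of microglia genes stayed 0 under every alternative. Between BNST and NAc it was 0 under every alternative except leaving out BNST 1 and NAc 1 together, where it was 3. The causes were not tested. Tmem119 passed between BNST and dStr under all 24 alternatives. No member difference from dStr was above 0 under any alternative, whereas C1qa, C1qb and C1qc were above 0 between BNST and NAc under 2, 6 and 4 of them. No alternative used the Csf1r probe set 1423593_a_at by itself, which differed from dStr by 0.07 in BNST and 0.02 in NAc. Quantile normalisation moved the median of all genes between BNST and dStr by 0.12, to 0.06, and that of the members to -0.48, and it changed the split of called genes to 1267 higher and 1165 lower, against 702 and 1325. P2rx4 was at 0.011 between BNST and dStr, against -0.65, with the mean of its probe sets. This was the single change of sign among the named genes where either of the 2 differences passed. For named genes other than the members, 34 further changes of sign over the comparisons and alternatives had neither difference passing. Irf8 was one, at -0.47 against 0.05 between BNST and dStr with the mean of its probe sets. Over the alternatives the count of all genes called lay between 1112 and 4150 for BNST against dStr, 112 and 707 for NAc against dStr and 71 and 2203 for BNST against NAc, against 2027, 291 and 318. Dim probe sets such as those of Aif1 and Trem2 limit what could be tested.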

Other observations

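Irf8, a transcription factor of macrophages, had a second kept probe set that did not follow its brightest one. It read 82.2, 52.5 and 54.9 in BNST, 45.2, 77.3 and 97.3 in NAc and 162, 112 and 143 in dStr, so that every BNST and NAc array lay below every dStr array. The brightest probe set of Irf8 differed by 0.05 between BNST and dStr. This probe set was chosen after its values were seen.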
